A study of Mus musculus with 23 samples.

Results

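Metallothioneins and zinc transporters form the zinc-handling genes described here, in quadriceps muscle of mice given corticosterone or vehicle. Mt1, Mt2, Mtf1, Slc30a1, Slc30a2, Slc39a14 and Slc39a8 were taken as a fixed list of symbols, chosen with earlier results of these data known. All 7 were found by symbol among the 55573 Ensembl gene IDs of the count matrix. All 7 were also among the 13049 genes that passed the filter for low counts, which kept a gene when 4 or more mice of any group exceeded 20 normalized counts. Slc30a2 exceeded that minimum in 1 of 6 vehicle-treated females and Slc39a8 in 2 of 6 males of each treatment, so both passed through other groups, where they were higher.

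The study asked how the muscle transcriptome of male and female mice responds to corticosterone, the main glucocorticoid hormone of rodents. C57BL/6J mice (strain label C57Bl6) of 8 to 10 weeks of age carried a slow-release pellet under the skin of the neck for 2 weeks and were fasted for 5 h before collection. Corticosterone-treated mice (6 males and 5 females) received pellets of 50 mg corticosterone with 50 mg cholesterol, and vehicle-treated mice (6 males and 6 females) received pellets of cholesterol alone. All groups were of this strain and carried a cholesterol pellet, and each mouse is named here by its sex (F or M) and number.

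Zinc is a structural part of many enzymes and transcription factors, and cells keep almost none of it free. Metallothioneins are small cysteine-rich proteins that bind zinc and copper, MTF-1 (encoded by Mtf1) is the zinc-sensing transcription factor that binds metal response elements in their promoters, transporters of the Slc30 family (ZnT) move zinc out of the cytosol, and those of the Slc39 family (ZIP) move it in. Metallothionein genes are also known targets of glucocorticoids, and zinc carriers and metallothioneins are known to be raised in muscle that wastes.

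Mt2 and Mt1 lie next to each other on chromosome 8, on the same strand, with 5513 bases between the end of Mt2 (chr8:94172664-94173568) and the start of Mt1 (chr8:94179082-94180327) in GENCODE M21 on GRCm38 (mm10). Slc30a1 (chr1:191906767-191913247) is shown with them because it is the other textbook target of MTF-1 among the 7 genes. The stretches below are the genomic bases just before the annotated starts, from RefSeq on GRCm38.p6, on the plus strand, which is the strand of all 3 genes: chr8:94178839-94179081 for Mt1, chr8:94172368-94172617 for Mt2 and chr1:191906531-191906766 for Slc30a1. Capitals mark matches to the core of the metal response element on either strand.
Mt1: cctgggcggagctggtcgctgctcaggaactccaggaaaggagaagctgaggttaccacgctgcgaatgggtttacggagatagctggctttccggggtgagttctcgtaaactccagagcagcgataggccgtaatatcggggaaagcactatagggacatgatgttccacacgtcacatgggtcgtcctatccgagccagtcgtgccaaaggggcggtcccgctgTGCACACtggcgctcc
Mt2: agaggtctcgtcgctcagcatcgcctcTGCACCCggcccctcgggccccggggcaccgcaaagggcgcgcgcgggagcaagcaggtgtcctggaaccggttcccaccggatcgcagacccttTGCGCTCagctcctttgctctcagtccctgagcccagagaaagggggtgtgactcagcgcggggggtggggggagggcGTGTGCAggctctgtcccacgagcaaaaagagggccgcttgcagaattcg
Slc30a1: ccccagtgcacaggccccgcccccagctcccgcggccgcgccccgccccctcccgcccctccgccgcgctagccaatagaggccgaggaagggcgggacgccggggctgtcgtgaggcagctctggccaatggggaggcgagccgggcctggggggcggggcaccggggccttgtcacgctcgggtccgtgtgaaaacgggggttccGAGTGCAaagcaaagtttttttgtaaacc

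The core of the metal response element was searched as TGCACNC or TGCGCNC on both strands of the whole RefSeq windows, which run from 250 bases before to 50 bases after each start. A window was found for 6 of the 7 genes. The Mt2 window held 4 matches and the Mt1 window 3, against 0.518% of all 32841 windows with at least 4 and 1.97% with at least 3. The stretches printed above hold 3 of those of Mt2 and 1 of those of Mt1, and the others lie after the RefSeq starts. The element is known from metallothionein promoters, so these counts describe the windows and are no test. The windows of Slc30a1 and Slc30a2 held 2 matches each, against 7.12% of all windows with at least 2. The Mtf1 window held 0, and of the 2 windows of Slc39a8, for 2 starts, one held 1 and the other 0, against 25.7% of all windows with at least 1. The half-site of the glucocorticoid receptor, searched as AGAACA on both strands, matched once in the Mtf1 window and in no other window of these genes, while 19.0% of all windows held it. RefSeq and GENCODE place some of these starts apart, with Mt2 starting earlier in RefSeq and Mtf1 and Slc30a2 earlier in GENCODE, so that the windows can miss bases near another start. GENCODE also lists transcripts of Mt1 and of Mt2 that start downstream of these windows, so the counts of matches hold for the RefSeq starts only.

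**Figure D1:**
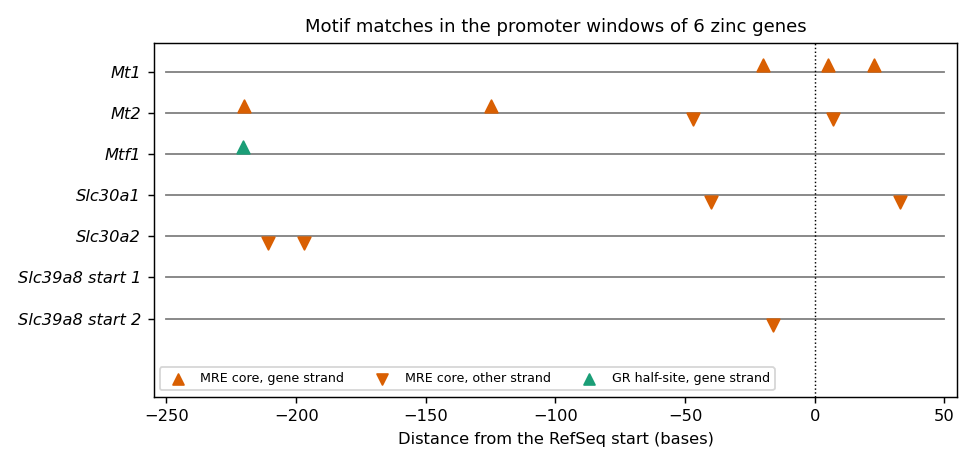
Matches to the core of the metal response element (MRE, orange) and to the half-site of the glucocorticoid receptor (GR, green) in the RefSeq windows of 6 genes, by distance in bases from the RefSeq start; triangles point up for matches on the strand of the gene and down for the other strand. Mt2 has 4 MRE matches, Mt1 has 3, Slc30a1 and Slc30a2 have 2 each, and the only GR half-site is in the window of Mtf1.

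Values are given as CPM, that is the count of a gene per 1000000 counts of its library after TMM normalization, and each mouse had 20904150 to 21984477 counts on genes. Tests used edgeR's quasi-likelihood test in 1 model of the 4 groups, with Benjamini-Hochberg adjustment of the p-values over the 13049 genes and a threshold of 0.01. The 8 muscle fibre markers were detected in every mouse, at a summed level of 75898 to 197770 CPM. All 8 hepatocyte markers were detected too, at 36.7 to 329 CPM in vehicle-treated and 50.5 to 2529 CPM in corticosterone-treated females, and at 16.5 to 1533 CPM in vehicle-treated and 41.7 to 2587 CPM in corticosterone-treated males. In F6, F10, M8, M9 and M12 the liver gene Alb exceeded 800 CPM. The 8 adipocyte markers (7 with counts in every vehicle-treated female) summed to 285 to 2634 CPM in vehicle-treated and 278 to 6947 CPM in corticosterone-treated females, and to 221 to 1010 and 297 to 930 CPM in the corresponding males. The 3 erythrocyte markers rose in both sexes, from 72.9 to 335 CPM to 252 to 526 CPM in females and from 83.9 to 173 CPM to 166 to 583 CPM in males. The part of these markers in the results below was not tested beyond the fits named there, and in bulk tissue fewer cells of a type and less RNA per cell cannot be told apart.

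Corticosterone raised 4 of the 7 genes in males (Mt1, Mt2, Slc30a1 and Slc39a14) and 3 in females (Mt1, Mt2 and Slc30a2), and lowered none in either sex. Among all tested genes, 13.2% rose in males and 7.4% in females, and 13.1% and 6.0% fell. The median log2FC of the 7 genes was 0.51 in males, against -0.02 over all tested genes, and 0.91 in females, against 0.04. Corticosterone-treated and vehicle-treated mice did not overlap in CPM for 3 of the 7 genes in males (21.9% of all tested genes) and for 4 in females (7.72%). The 7 genes and the lists of genes below were chosen with earlier results of these data known. Their counts and medians beside those of all tested genes therefore only describe them. The difference between the male and female responses passed the threshold for 0 of the 7 genes with edgeR (0.69% of all tested genes) and for 1, Slc30a2, with DESeq2. For this difference DESeq2 called 896 of the 13049 tested genes, against 90 with edgeR. The smallest edgeR p-values for this difference were those of Slc30a2 (0.000429, adjusted 0.0174), Slc30a1 (0.0076, adjusted 0.0545) and Slc39a14 (0.0127, adjusted 0.0719).

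Both metallothioneins rose in both sexes, and Mt2 had the largest log2FC of the 7 genes in each. Mt1 CPM in vehicle-treated males was 7.94 at the lowest, 18.6 at the median and 27.1 at the highest, and in corticosterone-treated males 67.2, 113 and 225. In vehicle-treated females the lowest, median and highest were 11.5, 14.7 and 27.4 CPM, and the corticosterone-treated females had 147 (F2), 123 (F4), 186 (F6), 62.4 (F8) and 94.4 CPM (F10). The groups did not overlap in either sex, and M10 had the highest Mt1 level of all mice. The log2FC was 2.70 (SE 0.35) in males, a 6.48-fold rise with an adjusted p-value of 4.46e-06, and 2.82 (SE 0.36) in females, a 7.06-fold rise with an adjusted p-value of 1.84e-05. All 6 treated males and all 5 treated females were above the mean of their vehicle group.

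Mt2, whose protein binds zinc in the same way, started lower and rose further. Vehicle-treated males had 3.16, 6.38 and 9.13 CPM of Mt2 at the lowest, median and highest, and corticosterone-treated males 45.4, 95.2 and 209. Vehicle-treated females had 4.69, 7.35 and 10.9 CPM, and corticosterone-treated females 131 (F2), 132 (F4), 153 (F6), 59.1 (F8) and 63.9 CPM (F10). Again no treated mouse overlapped with the vehicle group of its sex, and M10 was the highest male. The log2FC was 4.10 (SE 0.38) in males, a 17.1-fold rise (adjusted p-value 8.67e-08), and 3.86 (SE 0.38) in females, a 14.5-fold rise (adjusted p-value 1.77e-06).

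Neither metallothionein differed detectably between the sexes. The male minus female difference in log2FC was -0.12 (SE 0.48, adjusted p-value 0.875) for Mt1 and 0.24 (SE 0.50, adjusted p-value 0.764) for Mt2. In vehicle-treated mice the difference of males from females in log2 level was 0.08 (SE 0.33) for Mt1 and -0.28 (SE 0.36) for Mt2, and in corticosterone-treated mice it was -0.04 (SE 0.34) and -0.04 (SE 0.35). The sign of the difference in response for Mt1, and of the differences between corticosterone-treated males and females for both genes, turned under some of the other fits.

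**Figure D2:**
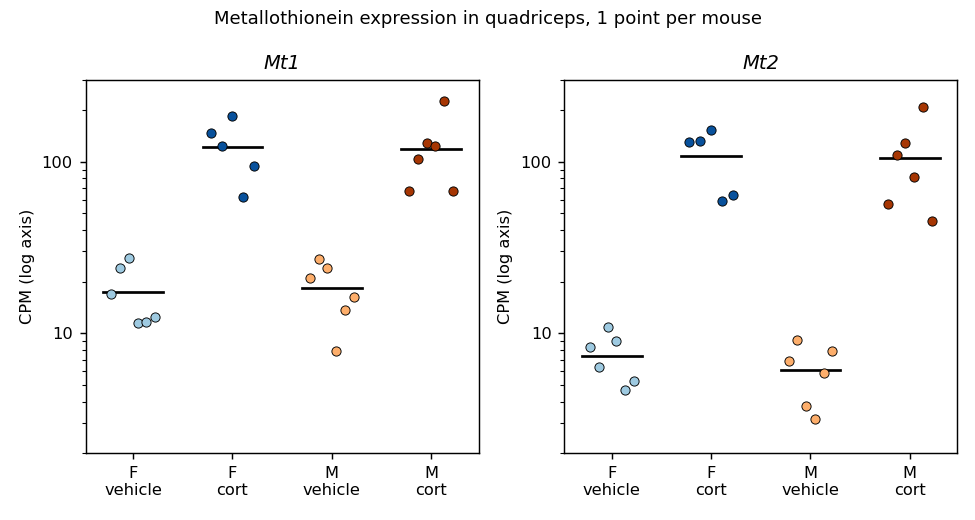
Mt1 (left) and Mt2 (right) in each mouse, as CPM on a log axis, in vehicle- and corticosterone-treated (cort) females (F) and males (M); the horizontal bar is the mean of the group. The corticosterone-treated mice sit between 62.4 and 225 CPM for Mt1 and between 45.4 and 209 CPM for Mt2, all above the vehicle-treated mice of both sexes.

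The balance of both metallothioneins moved with treatment, a description made after the values were seen and not tested. The ratio of Mt2 to Mt1 counts within a mouse had a median of 0.367 in vehicle-treated males, with a range of 0.157 to 0.488, and a median of 0.883 in corticosterone-treated males, with a range of 0.663 to 1.05. In females the median was 0.414 (0.263 to 0.779) with vehicle and 0.888 (0.677 to 1.07) with corticosterone. The males did not overlap between treatments, and in females 1 vehicle-treated mouse, at 0.779, lay among the treated ones. This ratio of counts depends partly on the lengths of the transcripts in use, which were not measured.

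Liver makes much metallothionein, and some libraries carried liver genes, so the metallothioneins were set beside Alb. The 5 libraries over 800 CPM of Alb had 153 (F6), 63.9 (F10), 81.4 (M8), 5.87 (M9) and 45.4 CPM (M12) of Mt2, while M10, with 27.2 CPM of Alb, had 209 CPM of Mt2. M9 was a vehicle-treated male with 1106 CPM of Alb, and its Mt1 (13.8 CPM) and Mt2 lay below the means of its group. Without those 5 libraries the log2FC of Mt1 was 2.78 in males (adjusted p-value 7.55e-05) and 2.65 in females (adjusted p-value 0.000554), and that of Mt2 was 4.36 (adjusted p-value 2.09e-06) and 3.83 (adjusted p-value 2.86e-05). With the hepatocyte and adipocyte marker scores of each mouse as covariates, the log2FC was 2.93 in males and 2.54 in females for Mt1 and 4.22 and 3.80 for Mt2. Both genes stayed past the threshold in both sexes in each of these fits. M9 received vehicle, so it cannot show what liver RNA of corticosterone-treated mice would add. The libraries kept in the fit without those 5 still held up to 224 CPM of Alb (M11). The part of liver RNA in the metallothionein values was not tested further.

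**Figure D3:**
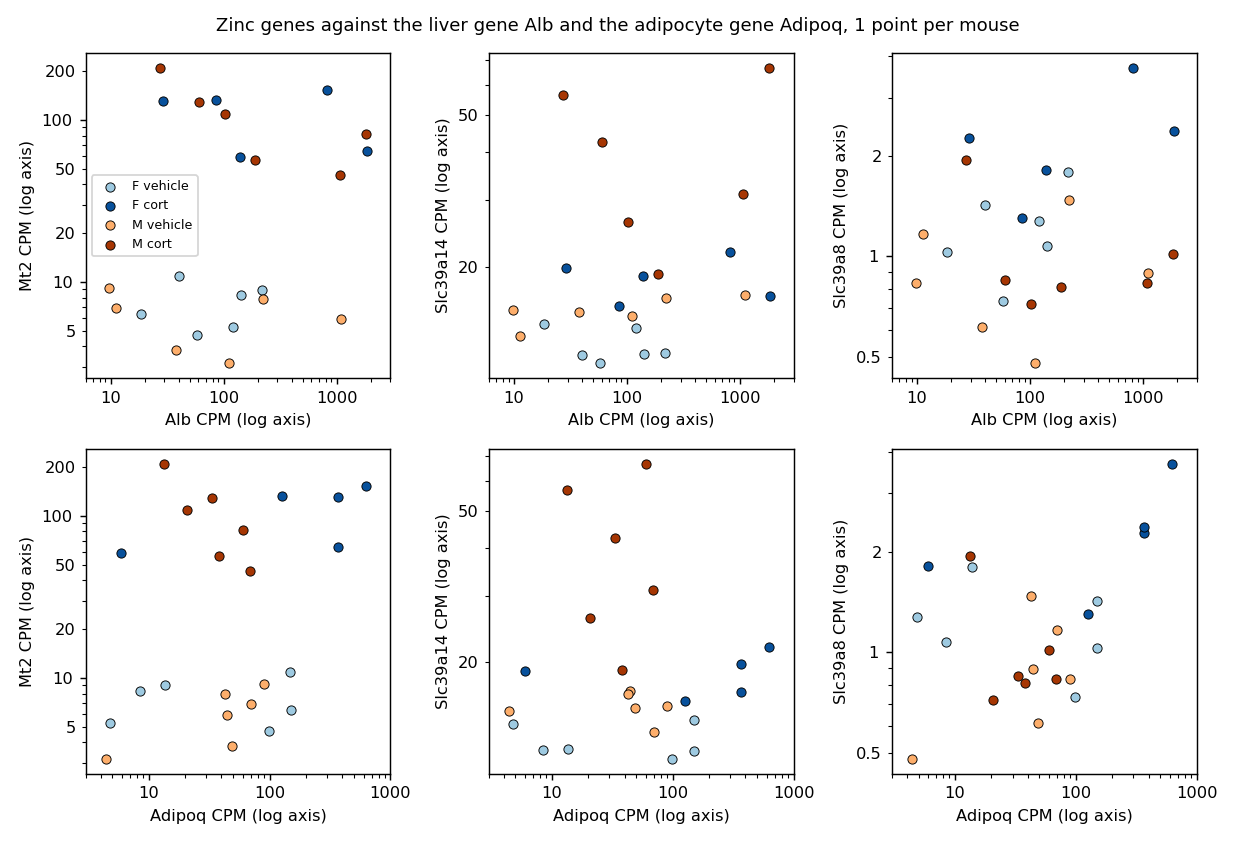
Mt2, Slc39a14 and Slc39a8 against Alb, made by hepatocytes (top), and Adipoq, made by adipocytes (bottom), as CPM on log axes, 1 point per mouse in the 4 groups. The mouse with the highest Mt2, M10, has 27.2 CPM of Alb, while the highest Slc39a14 (66.6 CPM, M8) and the highest Slc39a8 (3.68 CPM, F6) belong to libraries over 800 CPM of Alb.

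Mtf1, the zinc sensor that drives metallothionein transcription, changed little. Its CPM was 15.4, 19.3 and 21.7 at the lowest, median and highest in vehicle-treated males and 21.1, 22.2 and 25.1 in corticosterone-treated males, so that the groups overlapped only at their edges. The log2FC in males was 0.25 (SE 0.09) with an adjusted p-value of 0.0375, which misses the threshold. Vehicle-treated females had 16.7, 19.6 and 25.3 CPM, and treated females had 19.7 (F2), 20.6 (F4), 19.3 (F6), 22.6 (F8) and 19.1 CPM (F10), all within the range of the vehicle group. The log2FC of Mtf1 in females was 0.01 (SE 0.10, adjusted p-value 0.929), and the sexes did not differ in response beyond the spread (difference in log2FC 0.24, SE 0.14, adjusted p-value 0.234).

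Slc30a1 (ZnT1), the exporter at the cell surface that carries zinc out of the cell, rose in males. Vehicle-treated males had 6.92, 9.29 and 11.2 CPM at the lowest, median and highest, and corticosterone-treated males 11.1, 12.7 and 16.8, the highest again in M10. All 6 treated males lay above the vehicle mean, though the lowest treated male (11.1 CPM) fell just under the highest vehicle-treated male (11.2 CPM). The log2FC was 0.51 (SE 0.13), a 1.43-fold rise with an adjusted p-value of 0.0045. The call ended without M1 (adjusted p-value 0.0130), without M3 (0.0113), without M10 (0.0154) and without the 5 libraries over 800 CPM of Alb (0.0123), with log2FC values of 0.43 to 0.59.

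In females Slc30a1 showed no such rise. Vehicle-treated females had 6.86, 10.2 and 12.1 CPM, and treated females had 9.69 (F2), 8.48 (F4), 10.4 (F6), 8.32 (F8) and 10.7 CPM (F10), inside the vehicle range. The log2FC was -0.06 (SE 0.14, adjusted p-value 0.789). The male response exceeded the female one by 0.57 on the log2 scale (SE 0.20), with an adjusted p-value of 0.0545. Corticosterone-treated males did not overlap with corticosterone-treated females in Slc30a1, with a log2 difference of 0.45 (SE 0.14, adjusted p-value 0.0150) that misses the threshold. For this difference in Slc30a1 the adjusted p-value was 0.00377 with DESeq2 and 0.0081 without F7.

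Slc30a2 (ZnT2), which loads zinc into vesicles and is best known from the mammary gland and pancreas, had the largest sex difference of the 7 genes. Vehicle-treated males had 18.5, 22.8 and 35.0 CPM at the lowest, median and highest, while vehicle-treated females had 0.216, 0.384 and 1.37 CPM, from 5 to 32 counts per mouse. Males thus stood 43.0-fold above females without corticosterone, a log2 difference of 5.43 (SE 0.50, adjusted p-value 2.96e-07), with no overlap. It was the only one of the 7 genes past the threshold in this comparison, where 0.69% of all tested genes were higher and 0.268% lower in males.

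Corticosterone raised Slc30a2 in females. The treated females had 2.68 (F2), 10.4 (F4), 2.75 (F6), 4.23 (F8) and 2.03 CPM (F10), each above the highest vehicle-treated female. The log2FC was 2.94 (SE 0.50), a 7.68-fold rise with an adjusted p-value of 0.000284, and it was 2.35 without F4, still past the threshold. With limma-voom and quality weights the log2FC was 2.70 and its adjusted p-value 0.0237.

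In males Slc30a2 kept a high and variable level. Treated males had 15.4, 28.6 and 55.5 CPM, a range that overlapped with and went beyond that of vehicle-treated males on both sides, and the log2FC was 0.35 (SE 0.37, adjusted p-value 0.482). The male response was smaller than the female one by a log2 difference of -2.59 (SE 0.63), with an adjusted p-value of 0.0174, above the threshold. DESeq2 gave -2.61 with an adjusted p-value of 0.00108, and edgeR without F3 gave -3.10 with 0.00705. After corticosterone males were still higher, by 2.83 on the log2 scale (SE 0.44, adjusted p-value 0.000123), a 7.12-fold difference with no overlap.

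Slc39a14 (ZIP14), an importer of zinc that also carries iron and manganese, was the transporter that rose most in males. Vehicle-treated males had 13.1, 15.3 and 16.9 CPM at the lowest, median and highest, and corticosterone-treated males had 19.1, 36.8 and 66.6. The treated males spread widely, with M2 at 19.1 CPM, M8 at 66.6 and M10 at 56.7, but none overlapped with the vehicle group. The log2FC was 1.40 (SE 0.21), a 2.63-fold rise with an adjusted p-value of 2.14e-05. It was 1.28 without the 5 libraries over 800 CPM of Alb, which include M8, and 1.37 with the hepatocyte score as a covariate, both past the threshold.

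In females the rise of Slc39a14 was smaller and missed the threshold. Vehicle-treated females had 11.1, 11.8 and 14.1 CPM, and treated females had 19.9 (F2), 15.8 (F4), 21.9 (F6), 18.9 (F8) and 16.8 CPM (F10). The groups did not overlap, and the log2FC was 0.59 (SE 0.21) with an adjusted p-value of 0.0458. Fitted on females alone, the log2FC was 0.57 with an adjusted p-value of 0.00496. That fit had its own normalization, estimate of the spread and adjustment, and called 561 of all tested genes, against 1748 in the main fit. Why the call of Slc39a14 differed was not tested. The male response exceeded the female one by 0.81 (SE 0.30, adjusted p-value 0.0719). Among corticosterone-treated mice Slc39a14 was higher in males by 1.11 (SE 0.22, adjusted p-value 0.000675) on the log2 scale, which became 1.02 with an adjusted p-value of 0.0190 without the libraries over 800 CPM of Alb.

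Slc39a8 (ZIP8), the closest relative of Slc39a14 and an importer of the same metals, had the lowest mean CPM of the 7 genes in every group except vehicle-treated females, where Slc30a2 was lower. Vehicle-treated females had 0.733, 1.18 and 1.80 CPM, and treated females had 2.27 (F2), 1.30 (F4), 3.68 (F6), 1.82 (F8) and 2.38 CPM (F10). The groups overlapped, and the log2FC of 0.91 (SE 0.30) had an adjusted p-value of 0.0306. Vehicle-treated males had 0.478, 0.861 and 1.47 CPM and treated males 0.718, 0.842 and 1.95, with a log2FC of 0.18 (SE 0.31, adjusted p-value 0.677). After corticosterone Slc39a8 was lower in males than in females by a log2 difference of -1.15 (SE 0.31, adjusted p-value 0.00575), with overlapping groups. F6, the highest mouse, also had the highest Adipoq (626 CPM) and 822 CPM of Alb. The log2 difference was -0.70 without the 5 libraries over 800 CPM of Alb (adjusted p-value 0.271), -1.01 with the adipocyte score as a covariate (adjusted p-value 0.0371) and -0.89 without F6 (adjusted p-value 0.0329). The call also ended without M8 and F10 together and, in turn, without F2, F10, M2, M4, M6, M8 or M12, at adjusted p-values of 0.0104 to 0.0280. In the same comparison 3 of 4 macrophage, 2 of 3 fibroblast and 2 of 8 adipocyte markers were lower in males (14.0% of all tested genes). Of the 8 hepatocyte, 3 endothelial and 3 erythrocyte markers 0 were lower. The part of these cell types in the Slc39a8 difference was not tested.

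Between corticosterone-treated males and females, therefore, 3 of the 7 genes passed the threshold, Slc30a2 and Slc39a14 higher and Slc39a8 lower in males. Slc39a8 had passed the filter for low counts only through the female groups, where it was higher. Of all tested genes, 9.31% were higher and 14.0% lower in males in this comparison. This comparison shares its corticosterone groups with the comparisons within each sex, so that these calls are not independent of those above.

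**Figure D4:**
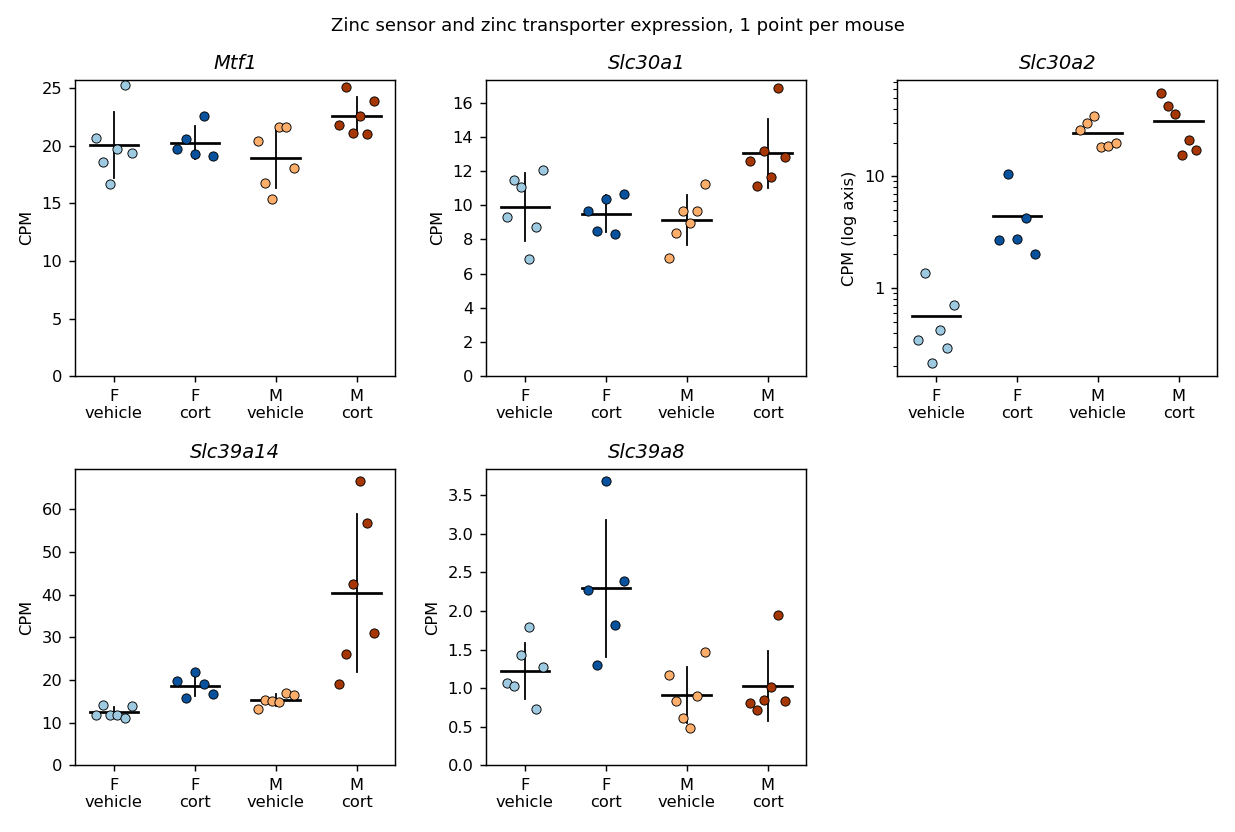
Mtf1, Slc30a1, Slc30a2, Slc39a14 and Slc39a8 in each mouse, as CPM (log axis for Slc30a2), in vehicle- and corticosterone-treated (cort) females (F) and males (M); horizontal bars are group means and vertical bars on the linear axes SD. Slc30a2 lies at 0.216 to 1.37 CPM in vehicle-treated females and at 18.5 to 35.0 CPM in vehicle-treated males, and Slc39a14 reaches 66.6 CPM in corticosterone-treated males.

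Compared per length, as TPM over the longest annotated transcript, the order of the genes changed with treatment. In vehicle-treated males the mean TPM was 31.4 ± 11.1 (SD, n = 6) for Mt1, 22.6 ± 8.78 for Mt2, 14.5 ± 3.27 for Slc30a2, 5.84 ± 0.687 for Slc39a14, 4.69 ± 0.805 for Mtf1, 3.28 ± 0.626 for Slc30a1 and 0.489 ± 0.219 for Slc39a8. Neighbours in this order overlapped between mice, except Slc30a2 with Slc39a14 and Slc30a1 with Slc39a8. In corticosterone-treated males Mt2 came first, at 390 ± 228 TPM, before Mt1 at 210 ± 109, Slc30a2 at 18.2 ± 7.94 and Slc39a14 at 16.0 ± 8.51. The ranges of Mt2 and Mt1 overlapped between mice, as did those of Slc30a2 and Slc39a14. Within each of these males Mt2 was above Mt1 (lowest ratio of Mt2 to Mt1 counts 0.663, over transcripts of 511 and 1085 bases). Every one of them had more Mt1 than Slc30a2 (lowest Mt1 109, highest Slc30a2 30.6 TPM).

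In vehicle-treated females the TPM was 32.0 ± 14.3 for Mt1, 28.7 ± 9.55 for Mt2, 5.16 ± 0.539 for Mtf1, 4.98 ± 0.764 for Slc39a14, 3.76 ± 0.937 for Slc30a1, 0.683 ± 0.203 for Slc39a8 and 0.359 ± 0.301 for Slc30a2 (n = 6). Neighbours overlapped here except Mt2 with Mtf1 and Slc30a1 with Slc39a8. In corticosterone-treated females (n = 5) Mt2 was at 454 ± 205 and Mt1 at 246 ± 114 TPM, followed by Slc39a14 at 8.09 ± 1.73, above Mtf1 at 5.62 ± 0.402 in every mouse. The TPM of Mt1 used a transcript of 1085 bases and that of Mt2 one of 511 bases. A shorter transcript for Mt1 would raise its TPM, so the order of Mt1 and Mt2 rests on that choice.

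Among the other zinc transporters and metallothioneins, a list of 22 genes, 13 passed the filter for low counts. In males 0 rose and 3 fell (Slc30a4, Slc39a1 and Slc39a10), and in females 1 rose (Slc39a9) and 2 fell (Slc30a4 and Slc30a9). Over all tested genes, 13.2% rose and 13.1% fell in males, and 7.4% rose and 6.0% fell in females. The median log2FC of these 13 genes was -0.15 in males, against -0.02 over all tested genes, and 0.04 in females, against 0.04. Mt3, Mt4, Slc30a3, Slc30a8, Slc30a10, Slc39a4, Slc39a5, Slc39a7 and Slc39a12 did not pass the filter.

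Slc30a4 (ZnT4), a carrier of zinc into vesicles, fell in both sexes, from 25.6 to 18.4 CPM in males (log2FC -0.48, adjusted p-value 0.00161) and from 22.6 to 15.7 CPM in females (log2FC -0.53, adjusted p-value 0.00224). Slc39a1 (ZIP1), an importer at the cell surface, fell in males from 55.5 to 31.4 CPM with no overlap (log2FC -0.82, SE 0.07, adjusted p-value 5.74e-08), and in females its log2FC was -0.22 (adjusted p-value 0.0314). For Slc39a1 the difference between the sexes itself passed the threshold, at -0.60 (SE 0.10, adjusted p-value 0.00607). This call was not followed under the other fits. The number of genes called for this difference was 90 in the main fit and 3 to 896 under the alternatives. Leaving out 1 mouse, it was 1 (without M3) to 893 (without F8). Slc39a10 (ZIP10), another importer, fell in males from 8.48 to 5.10 CPM (log2FC -0.73, adjusted p-value 0.000135), and its log2FC in females was 0.02, with an adjusted p-value of 0.0183 for the difference. Slc30a9, which acts in mitochondrial zinc export, fell in females from 102 to 74.8 CPM (log2FC -0.45, adjusted p-value 0.000675) and had a log2FC of -0.19 in males (adjusted p-value 0.0595). Slc39a9 (ZIP9) rose in females (log2FC 0.43, adjusted p-value 0.00562), against a log2FC of -0.10 in males (adjusted p-value 0.459). The other 2 importers called in males, Slc39a1 and Slc39a10, moved opposite to Slc39a14.

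**Figure D5:**
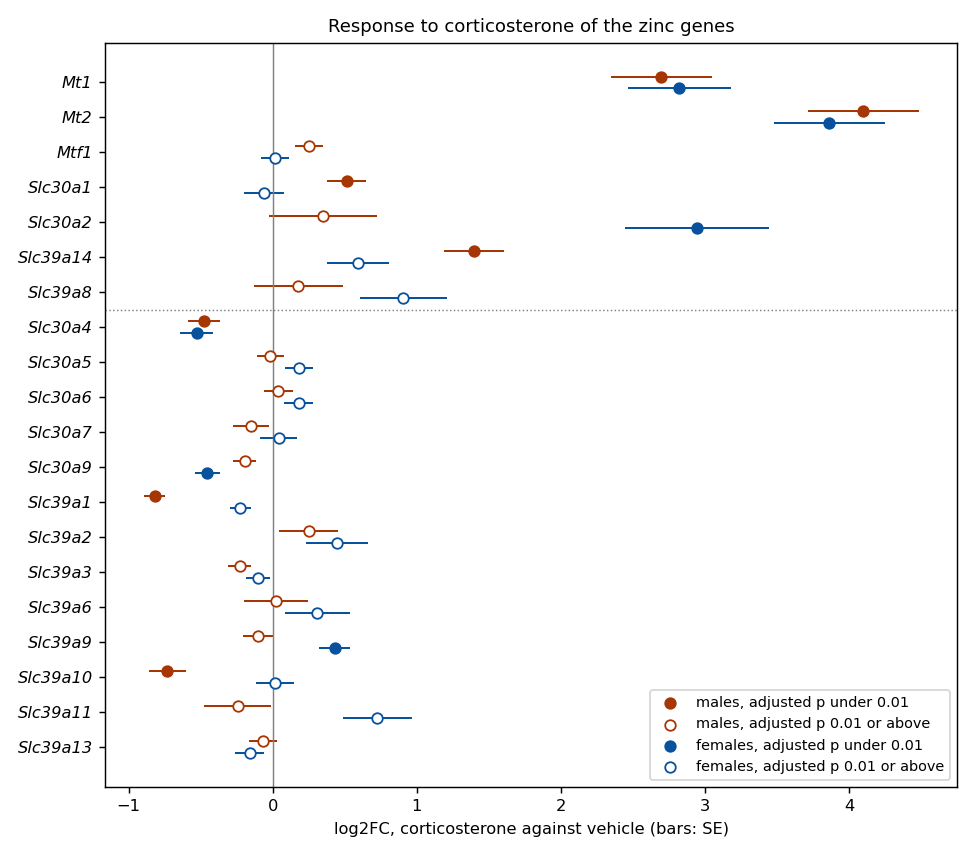
Log2FC of corticosterone against vehicle in males (orange) and females (blue) for the 7 genes (above the dotted line) and the 13 other zinc transporters that passed the filter (below it); bars are SE and filled points passed the adjusted p threshold of 0.01. Mt1 and Mt2 in both sexes, Slc39a14 in males and Slc30a2 in females stand to the right of the other values, and Slc39a1 and Slc39a10 in males stand furthest to the left.

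Genes that handle copper and iron were counted as a comparison, since metallothioneins bind copper and Slc39a14 and Slc39a8 carry iron. Of 22 genes 21 were tested, and 0 rose and 4 fell in males, while 4 rose and 3 fell in females. The shares over all tested genes were 13.2% and 13.1% in males, and 7.4% and 6.0% in females. The median log2FC was -0.04 in males and 0.23 in females, against -0.02 and 0.04 over all tested genes. Steap3, a reductase of iron taken up with transferrin, fell from 43.8 to 18.7 CPM in males (log2FC -1.23, adjusted p-value 3.04e-08) and from 44.0 to 27.6 CPM in females (log2FC -0.68, adjusted p-value 0.000146). Tfrc, the transferrin receptor, fell from 160 to 57.7 CPM in males (log2FC -1.48, adjusted p-value 6.3e-05) and from 136 to 54.4 CPM in females (log2FC -1.32, adjusted p-value 0.000894). Slc11a2 (DMT1), an iron importer, fell too (log2FC -0.56, adjusted p-value 1.48e-05 in males, and -0.46, adjusted p-value 0.000621 in females). Cp, the copper-carrying ferroxidase ceruloplasmin, rose in females from 18.1 to 87.8 CPM (log2FC 2.27, adjusted p-value 0.000825), with overlapping groups, and had a log2FC of 0.52 in males (adjusted p-value 0.335).

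Genes of interleukin-6 signalling and the acute phase, which include inducers of Slc39a14 and of the metallothioneins in liver, formed a list of 12, of which 10 were tested. Il6 itself, with 0 to 7 counts per mouse, and the acute phase gene Saa3, with 0 to 37, did not pass the filter. This list was chosen with earlier results of these data known, so its counts and medians only describe it. In males 6 rose and 0 fell, and in females 7 rose and 0 fell. Over all tested genes, 13.2% rose and 13.1% fell in males, and 7.4% rose and 6.0% fell in females. The median log2FC of the 10 was 0.86 in males and 0.75 in females, against -0.02 and 0.04 over all tested genes. Il6ra, the receptor subunit that binds interleukin-6, rose from 6.20 to 61.5 CPM in males (log2FC 3.31, adjusted p-value 7.83e-08) and from 6.39 to 31.9 CPM in females (log2FC 2.31, adjusted p-value 2.46e-05). Lcn2, an iron-siderophore binding protein of the acute phase, rose from 2.25 to 58.0 CPM in males (log2FC 4.68, adjusted p-value 2.59e-07) and from 1.13 to 56.0 CPM in females (log2FC 5.61, adjusted p-value 7.25e-07).

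The other called genes of the list were transcription factors, receptors and a protease inhibitor. The transcription factor genes Cebpb (log2FC 1.16 in males and 0.77 in females) and Cebpd (3.31 and 2.04) rose in both sexes, as did Osmr, the oncostatin M receptor (0.47 and 0.73). Il6st, the shared signalling subunit, rose in males (log2FC 0.56, adjusted p-value 0.00053). Lifr (log2FC 0.39, adjusted p-value 0.0071) and Serpina3n, a protease inhibitor of the acute phase (log2FC 5.38, adjusted p-value 3.01e-05), rose in females. Stat3 and Socs3 were not called, with log2FC values of -0.13 and -0.49 in males and -0.22 and -0.16 in females. Fkbp5, a glucocorticoid target used as a reference for exposure to the hormone, rose with a log2FC of 3.36 in males (adjusted p-value 6.74e-08) and 3.05 in females (adjusted p-value 1.77e-06). Of 7 glucocorticoid target genes, Fkbp5 included, 7 rose in males and 1 in females, against 13.2% and 7.4% of all tested genes.

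Mice that were high for one metallothionein within their own group were high for the other. With the group mean subtracted from log2 CPM, Mt1 and Mt2 had Pearson's r = 0.762 and Spearman's rho = 0.772 over the 23 mice (permutation test within groups, p-values adjusted over 21 pairs of the 7 genes 0.0042 and 0.00189). Without the 2 mice farthest from the median of Mt1, r was 0.671. Mt1 and Mtf1 moved oppositely (r = -0.649, rho = -0.698, adjusted p-values by permutation 0.0124 and 0.00787), with r = -0.612 without the 2 farthest mice. Mt2 and Slc39a8 varied together across mice of a group (r = 0.598, rho = 0.571, adjusted p-values by permutation 0.0435 and 0.0522; r = 0.551 without the 2 farthest mice). Slc39a8 had few counts per mouse, from 10 to 91, so that this relation rests on low counts. The other 18 pairs had adjusted p-values for r above 0.05. Mice within a group share no further grouping in their labels, so values within batches were not to be had.

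The genes whose log2 CPM followed each gene most closely over the 23 mice were also listed, by Pearson's r over all 4 groups, in which the treatment and sex differences are included. For Mt1 they were Lrg1, a glycoprotein of the acute phase (r = 0.959), Pnpla2, the lipase that opens fat droplets (r = 0.952), and Il6ra (r = 0.950). For Mt2 they were Lcn2 (r = 0.946), Syn2 (r = 0.940) and Chil3 (r = 0.939). For Slc30a2, the gene with the sex difference, they were Fscn2 (r = 0.954), Actr3b (r = 0.937) and Serpinb6a (r = 0.904).

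Slc39a14 was followed most closely by Hgs (r = 0.931), Gm7160 (r = 0.930) and Mfhas1 (r = 0.918). The values were lower for the other 3 genes. They reached 0.837 for Mtf1 with Ncdn, 0.795 for Slc30a1 with Usp22 and 0.843 for Slc39a8 with Hsp90b1, a chaperone of the endoplasmic reticulum.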

How the data were processed

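Quadriceps RNA of 23 mice was sequenced as stranded paired-end libraries. The authors aligned read pairs to mm10 with STAR (version 2.7.3a), counted those on 1 gene by strand with HTSeq (version 0.12.4) and Ensembl release 97, and deposited raw counts per gene and mouse. The 5 summary entries, 10.7% to 15.3% of read pairs, were left out. Groups came from the labels. R (version 4.3.3), edgeR (version 4.0.16), limma (version 3.58.1) and DESeq2 (version 1.42.0) were used, with a prior count of 1 for log2 CPM. The gene filter followed the study's methods, and edgeR replaced the study's DESeq2 as the main test. The edgeR, limma-voom and DESeq2 fits of the 4 groups were tested on simulated counts, for corticosterone against vehicle in males only. The other fits and comparisons were not tested in this way. The 7 genes and all lists were chosen with earlier results of these data known. Beside the 7 genes, genes of the zinc and acute phase lists were named where called in either sex, and the 4 genes of the copper and iron list with the smallest p. Replicates are mice by their labels, and no 2 of a group differed by less than the sampling noise. Sequences came from the RefSeq tables, and positions and lengths from GENCODE M21, which matched 55480 gene IDs.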

Additional observations from a re-analysis of the deposited data

Results flagged for a closer look

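In 3 of the 28 combinations of gene and group, 1 mouse stood apart from the others by Dixon's test at the 95% level, which chance does in about 1 in 20 groups. Slc30a1 was at 16.8 CPM in M10, against 11.1 to 13.2 CPM in the other corticosterone-treated males. Slc39a8 was at 1.95 CPM in the same mouse, against 0.718 to 1.01 CPM. Slc30a2 was at 10.4 CPM in F4, against 2.03 to 4.23 CPM in the other corticosterone-treated females. M10 also had the highest Mt1 and Mt2 of all mice.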

How the results depend on the processing

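The 35 values of log2FC (7 genes in 5 comparisons) were set against 1225 values under other settings, where each fit gave many values. Of these values 1161 kept direction and side of the threshold, 21 lost the call, 5 gained one and 38 changed sign. The calls of Mt1, Mt2 and Slc39a14 in males, of Mt1 and Mt2 in females and of Slc30a2 between vehicle-treated sexes were lost in none of them. The Slc30a1 rise in males also fell below an added limit of 1 on the log2FC, which leaves 3 of the 4 male calls. Every sign change concerned a value that passed the threshold in neither fit, and the cause was not tested.

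For the difference between the sexes in response, 1 of the 7 genes was called with DESeq2 and 0 to 1 when leaving out 1 mouse at a time (1 without F3). Between corticosterone-treated sexes 1 gene was called without the libraries over 800 CPM of Alb, and 2 to 4 when leaving out 1 mouse. Leaving out those libraries and using the adipocyte score were chosen after seeing the data. Over all tested genes the calls for the difference in response numbered 90, and 3 (without those libraries) to 896 (DESeq2) under the alternatives. The calls numbered 3426 (982 to 4129) in males, 1748 (460 to 2458) in females, 125 (75 to 284) between vehicle-treated sexes and 3043 (290 to 3843) between corticosterone-treated sexes.

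The log2FC of Mtf1 in females was -0.024 without the gene filter, -0.007 with the hepatocyte score and -0.0046 in females alone, and -0.033 to 0.091 leaving out 1 mouse. For Mt1 the difference in response was 0.13 without the libraries over 800 CPM of Alb, 0.41 with the adipocyte score and 0.39 with both scores, and -0.41 to 0.095 leaving out 1 mouse. The difference for Mt2 was -0.082 to 0.42 leaving out 1 mouse. Between vehicle-treated sexes Mt1 was at -0.017 with both scores and at -0.063 to 0.26 leaving out 1 mouse. Between corticosterone-treated sexes Mt1 was at 0.022 without the gene filter, 0.059 with the replicate block, 0.27 without those libraries, 0.44 with the adipocyte score and 0.37 with both scores, and -0.33 to 0.18 leaving out 1 mouse. Mt2 there was at 0.023, 0.070, 0.26, 0.15 and 0.079 under the same 5 alternatives and at -0.36 to 0.15 leaving out 1 mouse. Leaving out 1 mouse gave -0.11 to 0.37 for Slc39a8 in males and -0.15 to 0.0042 for Slc30a1 in females.

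The labels do not say that a replicate number marks shared mice or days, and the deviations of same-numbered males and females from their group means correlated at 0.085 to 0.48 in the 6 vehicle pairs and at -0.38 to 0.24 in the 5 corticosterone pairs. The numbers were therefore not taken to pair the mice, although all vehicle correlations were positive. A replicate block could be fitted only between the sexes, since the numbers differ between treatments, and it called 0, 1 and 2 of the 7 genes for the difference in response, the vehicle groups and the corticosterone groups, losing Slc39a8 (log2 difference -1.10, adjusted p-value 0.0239). Depth limited Slc39a8 and, in vehicle-treated females, Slc30a2, which had 10 to 91 and 5 to 32 counts per mouse.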
